A study of Mus musculus with 24 samples.

Results

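Imprinted genes are transcribed mainly from the allele of one parent. A list of 46 mouse imprinted genes that lie outside the Dlk1 to Dio3 domain was read in embryonic stem cells (ESCs) that lack the Polycomb protein EED and in wild-type (WT) ESCs, before and during differentiation. Of the 46 genes, 39 had a probe set that the array annotation pairs with that gene symbol alone, among 19938 genes measured in that way. Each of the 39 had 1 such probe set, and 23 of them are known as paternally expressed and 16 as maternally expressed. Gnas, Ube3a and Snrpn lie on probe sets annotated with several symbols and their values are given to no gene here, and H19, Slc22a3, Kcnq1ot1 and Zrsr1 were not analysed here.

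The 24 samples came from 3 ESC lines in 4 combinations with genotype, each treated as a line of its own below (KO E14, KO J1, WT J1 and WT V6.5). Eed knockout (KO) cells were in the E14 and J1 lines, and WT cells in the J1 and V6.5 lines, so that J1 was the only line with both genotypes. Each line was sampled on day 0 as undifferentiated ESCs, expanded with LIF on mitotically inactivated mouse embryonic fibroblasts (MEFs), and on days 3 and 7 as embryoid bodies (EBs), cell aggregates formed without LIF in hanging drops from MEF-depleted ESCs. There were 2 arrays for each line and day, hence 4 KO and 4 WT arrays a day. The KO cells were received from another laboratory, their deletion is not described in the sources used here, and no WT E14 or KO V6.5 cells were sampled, so genotype and line of origin cannot be told apart outside J1. The labels do not say whether the arrays of a line and day came from separate cultures, so the spread between such arrays may be technical only. The p-values within J1 and between lines of a genotype rest on that spread alone. The other p-values below rest on it together with differences between the 2 lines of a genotype.

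Genomic imprints are laid down as DNA methylation in the germ line at control regions that set which parental copy of a whole gene cluster is used. Several clusters also rely on a long noncoding RNA, such as Airn for Igf2r, that silences neighbouring genes in cis and brings in Polycomb complexes. Polycomb repressive complex 2 methylates histone H3 at lysine 27 and needs EED to do so. A smaller group of genes, among them Sfmbt2, Gab1 and Slc38a4, is known to be imprinted through maternal H3K27 trimethylation set in the oocyte and not through inherited DNA methylation. Imprints are also known to drift in cultured ESCs. The arrays read the RNA of both alleles together and in bulk, so they do not say which allele a transcript came from, and fewer cells with a transcript and less RNA per cell cannot be told apart.

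The genes whose level differed between the genotypes (below) are shown first by the sequence at their start. RefSeq (GRCm38.p6) held the window from 250 bases before to 50 bases after the start for 6 of these 7 genes, and for 40 of the 46 listed. Where a gene has several starts, the one with the most CpG dinucleotides is printed, 5′ to 3′ on the gene's strand, with every CG in capitals, because CpG methylation carries most imprints. The windows are Igf2 at chr7:142658755-142659054 (minus strand), Peg3 at chr7:6730370-6730669 (minus), Mest at chr6:30737800-30738099 (plus), Plagl1 at chr10:13090582-13090881 (plus), Nnat at chr2:157559828-157560127 (plus) and Sfmbt2 at chr2:10372186-10372485 (plus).
Igf2: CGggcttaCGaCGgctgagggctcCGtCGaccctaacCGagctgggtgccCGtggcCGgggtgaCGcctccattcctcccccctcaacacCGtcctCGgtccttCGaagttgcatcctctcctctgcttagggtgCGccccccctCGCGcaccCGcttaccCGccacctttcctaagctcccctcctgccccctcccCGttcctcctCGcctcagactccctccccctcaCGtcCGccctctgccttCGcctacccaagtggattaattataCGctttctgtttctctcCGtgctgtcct
Peg3: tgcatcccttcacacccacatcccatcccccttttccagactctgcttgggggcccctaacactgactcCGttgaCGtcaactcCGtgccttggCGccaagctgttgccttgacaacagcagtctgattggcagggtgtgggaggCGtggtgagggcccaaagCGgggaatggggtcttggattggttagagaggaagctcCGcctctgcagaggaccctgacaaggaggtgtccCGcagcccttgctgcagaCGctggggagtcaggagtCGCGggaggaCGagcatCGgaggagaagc
Mest: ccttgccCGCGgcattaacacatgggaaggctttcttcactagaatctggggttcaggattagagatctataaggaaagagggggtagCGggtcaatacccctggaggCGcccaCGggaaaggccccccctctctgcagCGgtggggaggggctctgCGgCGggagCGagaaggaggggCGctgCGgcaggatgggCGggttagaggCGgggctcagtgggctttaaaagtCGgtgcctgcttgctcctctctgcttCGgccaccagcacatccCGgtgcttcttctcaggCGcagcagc
Plagl1: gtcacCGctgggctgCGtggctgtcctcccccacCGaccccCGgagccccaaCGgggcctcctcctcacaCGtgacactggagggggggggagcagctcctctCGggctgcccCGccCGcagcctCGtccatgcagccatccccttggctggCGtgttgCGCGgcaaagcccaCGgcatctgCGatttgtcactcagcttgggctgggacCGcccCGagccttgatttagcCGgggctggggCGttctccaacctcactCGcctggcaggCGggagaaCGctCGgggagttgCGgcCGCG
Nnat: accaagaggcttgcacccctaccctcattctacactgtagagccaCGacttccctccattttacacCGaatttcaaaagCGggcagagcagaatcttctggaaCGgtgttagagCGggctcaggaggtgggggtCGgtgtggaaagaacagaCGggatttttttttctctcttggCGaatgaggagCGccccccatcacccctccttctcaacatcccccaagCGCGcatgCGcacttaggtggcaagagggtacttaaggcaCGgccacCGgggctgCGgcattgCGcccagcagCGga
Sfmbt2: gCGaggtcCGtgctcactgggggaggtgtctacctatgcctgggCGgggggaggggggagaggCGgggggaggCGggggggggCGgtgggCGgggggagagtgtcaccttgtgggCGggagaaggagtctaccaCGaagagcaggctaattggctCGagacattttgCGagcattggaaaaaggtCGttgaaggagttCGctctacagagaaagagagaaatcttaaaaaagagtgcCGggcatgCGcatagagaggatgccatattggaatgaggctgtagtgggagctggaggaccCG

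All 6 windows hold more CpG than the median of all genes, with 24 in Igf2, 13 in Peg3, 17 in Mest, 26 in Plagl1, 17 in Nnat and 16 in Sfmbt2. Of these, only Igf2 and Plagl1 exceed the median of the listed genes. The median was 17 over the 40 listed genes with a window and 8 over all 27025 genes in the table. The hexamer TGCCGC, the motif of the imprint-protecting zinc finger protein ZFP57, was searched on both strands. It occurred 2 times in the Mest window and 1 time each in those of Nnat and Plagl1, and had no match in the windows printed for Igf2, Peg3 and Sfmbt2. It was present in 25% of the listed genes' windows and in 12.2% of the windows of all genes. The hexamer itself holds a CpG and the listed genes' windows hold more CpG, and the shares were not compared at equal CpG content. A match is a run of letters and says nothing of binding or of methylation in these cells.

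The values are log2 expression values, and a gene is called here where limma's adjusted p (Benjamini-Hochberg over all 19938 genes) was under 0.05 and the difference at least 2-fold, which is 1 on the log2 scale. The targeted gene bears out the labels: the Eed probe set read 5.76 to 7.48 over the KO arrays and 9.37 to 11.02 over the WT arrays. Over genes, the paired arrays had r = 0.990 to 0.995, and those of WT J1 on day 7 had r = 0.962. In that pair 1256 genes were 2-fold apart (elsewhere 21 to 163), and Zim1, Sfmbt2, Ddc and Plagl1 were among them.

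Over the 3 days, 7 of the 39 imprinted genes were called between KO and WT: Igf2, Peg3, Peg10, Mest, Plagl1 and Sfmbt2 were higher in KO cells and Nnat was lower. All 7 are paternally expressed genes, and none of the 16 maternally expressed genes was called by limma (2, 4 and 3 of them had an unadjusted p under 0.05 on days 0, 3 and 7). Day 3 held most of the calls, with 6 of 39 imprinted genes higher (15.4%, against 0.667% of all genes) and 1 lower (2.56%, against 0.0903%). On day 0, Igf2 was called higher (1 of 39, against 0.461% of all genes called higher) and Nnat lower (1 of 39, against 0.0903%). On day 7, Sfmbt2 was called higher (1 of 39, against 3.08%) and Nnat lower (1 of 39, against 1.28%), shares near those of all genes. Without replicate 1 of WT J1 on day 7 the day 7 count became 4, with 3 lower.

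On day 3 the median difference of the paternally expressed genes, KO minus WT, was 0.37 on the log2 scale, the maternally expressed genes' median was 0.08, and the median of all genes was 0.00. Within J1 alone the day 3 medians were 0.20 for the paternally and 0.08 for the maternally expressed genes, and the difference between these classes was not tested. Over all lines the medians of the paternally expressed, maternally expressed and all genes on day 0 were 0.21, 0.12 and -0.03, and on day 7 they were -0.02, -0.12 and -0.04. All 4 KO arrays lay above all 4 WT arrays for 11 imprinted genes on day 3 (6.12% of all genes) and below them for 4 (4.30%). The same counts were 4 and 2 on day 0 (6.33% and 5.01% of all genes), and 4 and 3 on day 7 (9.70% and 7.13%). The calls are sensitive to how much weight the paired arrays carry: with the arrays of a line and day averaged to 1 value, leaving 2 lines against 2, limma called Igf2 higher on day 3, and on day 7 Sfmbt2 higher and the maternally expressed Asb4 lower.

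**Figure D1:**
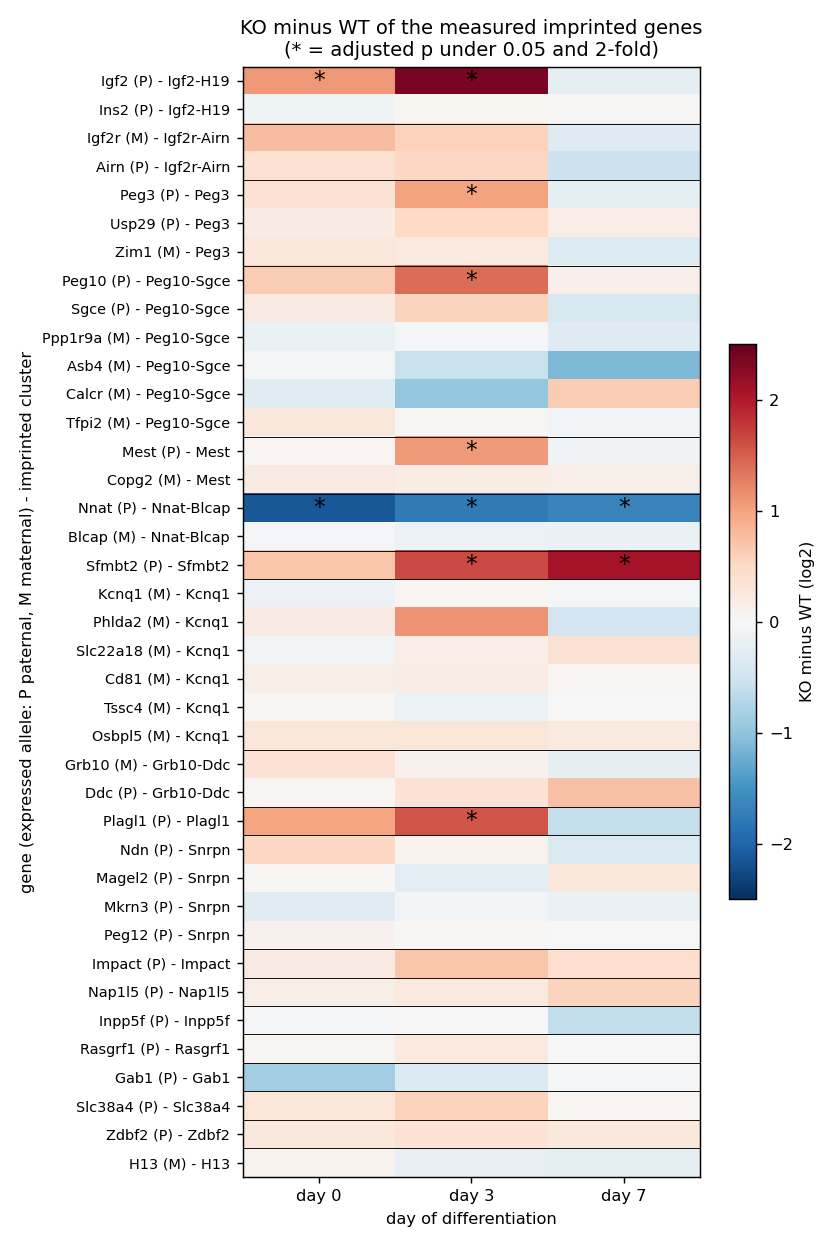
Difference between KO and WT means on the log2 scale (colour; red higher in KO, blue lower) for the 39 measured imprinted genes (rows, ordered by cluster; P paternally, M maternally expressed) on days 0, 3 and 7 (columns), with 4 arrays per genotype and day. Asterisks mark adjusted p under 0.05 and at least 2-fold; 7 of them stand in the day 3 column, and Nnat is marked on all 3 days.

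Igf2, the imprinted fetal growth factor, had the largest difference of the 39 genes on day 3. On day 0 it read 9.73 and 9.90 in KO E14, 9.68 and 9.13 in KO J1, 8.91 and 8.56 in WT J1, and 8.63 and 8.03 in WT V6.5. On day 3 it read 9.68 and 10.36 in KO E14, 10.86 and 10.61 in KO J1, 8.13 and 8.39 in WT J1, and 7.64 and 7.89 in WT V6.5. On both days every KO array was above every WT array. The gap between the means was wider on day 3, but the widening was not called (limma interaction 1.29, adjusted p = 0.2). The difference was 1.08 (SE 0.26, 2.11-fold, limma adjusted p = 0.0302) on day 0 and 2.36 (SE 0.26, 5.15-fold, adjusted p = 1.12e-05) on day 3. By day 7 Igf2 was high in all lines, at 12.44, 12.44, 12.47 and 12.38 in KO arrays and 12.11, 12.75, 12.85 and 12.90 in WT arrays. The groups then overlapped, with a difference of -0.22 (adjusted p = 0.654).

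The day 3 call for Igf2 was kept in all 39 alternative settings. The day 0 call was lost in limma without replicate 1 or 2 of KO E14 (1.02 and 0.96, adjusted p = 0.081 and 0.0987), replicate 1 of KO J1 (1.06, 0.0649), replicate 2 of WT J1 (1.07, 0.0692) or replicate 2 of WT V6.5 (0.91, 0.11). It was also lost without the line KO E14 (0.87, adjusted p = 0.281) or WT V6.5 (0.87, 0.132), and with averaged arrays (0.205). Ins2, the insulin gene next to Igf2, stayed within -0.12 and 0.05 of WT on the 3 days.

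Fibroblasts express several paternally expressed imprinted genes, and the ESCs were grown on them. Of 18 fibroblast markers, 3 were called higher in KO cells on day 0 (Fbln2, Lox and Thbs1) and none by limma on day 3, with none lower on either day; 10 and 4 of them had an unadjusted p under 0.05, all higher. The mean level over the 18 was 8.06 to 9.08 in KO arrays and 7.56 to 7.83 in WT arrays on day 0, and 7.27 to 7.48 against 6.87 to 7.14 on day 3. The median difference over the 18, KO minus WT, was 0.78 on day 0 and 0.25 on day 3. Of 12 extraembryonic endoderm markers, Cubn and Dab2 were called higher on day 0 and Cubn alone on day 3, none was lower, and the mean level was 7.37 to 7.98 in KO and 6.98 to 7.29 in WT arrays on day 3. The part of such cells in the imprinted genes' differences was not tested.

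Igf2r, the maternally expressed receptor that clears IGF2, was higher in all KO than in all WT arrays on day 0 without reaching a call. It read 9.69 and 9.87 in KO E14, 9.61 and 9.69 in KO J1, 8.63 and 9.18 in WT J1, and 8.99 and 8.99 in WT V6.5, a difference of 0.76 (limma adjusted p = 0.134). On day 3 the difference was 0.57 (adjusted p = 0.329), again with no overlap between the arrays. Airn, the noncoding RNA that silences Igf2r on the paternal allele, differed by 0.39 on day 0 and 0.52 on day 3 (adjusted p = 0.589 and 0.393). On day 7 Igf2r and Airn stood at -0.32 and -0.54, neither called.

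Peg3, Peg10, Mest and Plagl1 were called higher in KO cells on day 3 and were not called on days 0 and 7. Their KO to WT differences on days 0 and 3 were not shown to differ from each other (limma interaction, adjusted p = 0.802, 0.584, 0.399 and 0.999). Peg3, a zinc finger protein, read 10.60 and 11.16 in KO E14, 10.95 and 10.82 in KO J1, 10.22 and 10.16 in WT J1, and 9.53 and 9.55 in WT V6.5. All KO arrays were above all WT arrays, and WT J1 lay between KO and WT V6.5. The difference was 1.02 (SE 0.23, limma adjusted p = 0.0157). This value sits at the 2-fold limit: it fell to 0.92 without replicate 2 of KO E14, 0.99 without replicate 1 of KO J1, 0.92 without replicate 1 of WT V6.5 and 0.93 without replicate 2, and to 0.69 without the line WT V6.5. It kept its size but lost the call without KO E14 (adjusted p = 0.189) or KO J1 (0.108) and with averaged arrays (0.0956). On day 0 Peg3 differed by 0.35 and on day 7 by -0.24, and its neighbours Usp29, a ubiquitin protease gene that starts from the same promoter, and Zim1, a maternally expressed zinc finger gene, differed by 0.50 and 0.24 on day 3, with no call.

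Peg10, a retrotransposon-derived gene needed in the placenta, had the lowest adjusted p of these 4. It read 12.93 and 13.08 in KO E14, 12.89 and 12.73 in KO J1, 12.21 and 11.44 in WT J1, and 11.30 and 11.06 in WT V6.5 on day 3. WT levels were below those of KO in every array, and V6.5 was the lowest. The difference was 1.40 (SE 0.22, 2.65-fold, limma adjusted p = 0.000645), and no single array decided the call. It was lost without the line KO E14 (1.31, adjusted p = 0.0557) and with averaged arrays (0.114). Day 0 gave 0.63 (adjusted p = 0.165) and day 7 gave 0.12.

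No other gene of the Peg10 cluster was called between KO and WT. Sgce, the paternally expressed epsilon-sarcoglycan gene next to Peg10, differed by 0.56 on day 3 (limma adjusted p = 0.541). The maternally expressed Calcr, the calcitonin receptor, went the other way. It read 8.79, 9.09, 9.40 and 9.14 in KO arrays and 10.22, 10.36, 9.89 and 9.80 in WT arrays on day 3. No KO array reached a WT array, and the difference of -0.96 had an adjusted p of 0.00966 but was just under 2-fold. On day 7 it was higher in KO cells by 0.64 (adjusted p = 0.0301). Asb4, a SOCS box gene, was lower by 1.12 on day 7 without a call (difference -1.12, adjusted p = 0.058), with KO arrays at 7.10, 9.90, 8.96 and 8.49. Ppp1r9a, the neurabin gene, and Tfpi2, a protease inhibitor, stayed within -0.32 and 0.28 on every day.

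Mest, which encodes a hydrolase-fold protein, read 11.46 and 11.67 in KO E14, 11.97 and 11.72 in KO J1, 11.31 and 10.31 in WT J1, and 10.45 and 10.49 in WT V6.5 on day 3. The KO arrays were above the WT arrays, with 1 WT J1 array close to them. The difference was 1.06 (SE 0.24, limma adjusted p = 0.0189). It was lost without replicate 2 of KO E14 (adjusted p = 0.0607), replicate 1 of KO J1 (0.0512), replicate 2 of WT J1 (0.93, 0.067) or replicate 1 of WT V6.5 (0.0513). Leaving out the line KO E14 (1.20, 0.115), KO J1 (0.93, 0.161) or WT V6.5 (0.90, 0.111), or averaging the arrays (0.162), ended it too. On days 0 and 7 Mest differed by 0.05 and -0.08, and its neighbour Copg2, a coatomer subunit, by 0.14 to 0.23 over the 3 days.

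Plagl1, a zinc finger transcription factor, read 9.40 and 9.70 in KO E14, 9.75 and 9.28 in KO J1, 8.31 and 7.38 in WT J1, and 7.80 and 8.32 in WT V6.5 on day 3. The groups did not overlap, but of the 7 genes this call was lost in the most settings. The difference was 1.58 (SE 0.41, limma adjusted p = 0.0414). It ended without any 1 of 8 arrays: on day 3, replicate 1 of KO E14 (1.64, adjusted p = 0.0693), replicate 2 of KO E14 (1.53, 0.119), replicate 1 of KO J1 (1.48, 0.099), replicate 2 of KO J1 (1.65, 0.0636), replicate 2 of WT J1 (1.38, 0.127) and replicate 1 of WT V6.5 (1.52, 0.0948). On other days they were replicate 2 of KO E14 on day 7 (0.0504) and replicate 2 of WT V6.5 on day 0 (0.0536). It also ended with averaged arrays (0.0527), with arrays centred on their median (0.0536) and without the line KO E14 (0.346), KO J1 (0.15) or WT V6.5 (0.0693). On day 0 Plagl1 already differed by 0.98 (adjusted p = 0.29). On day 7 the WT arrays spread from 9.87 to 12.02, and the difference was -0.59 (adjusted p = 0.382).

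**Figure D2:**
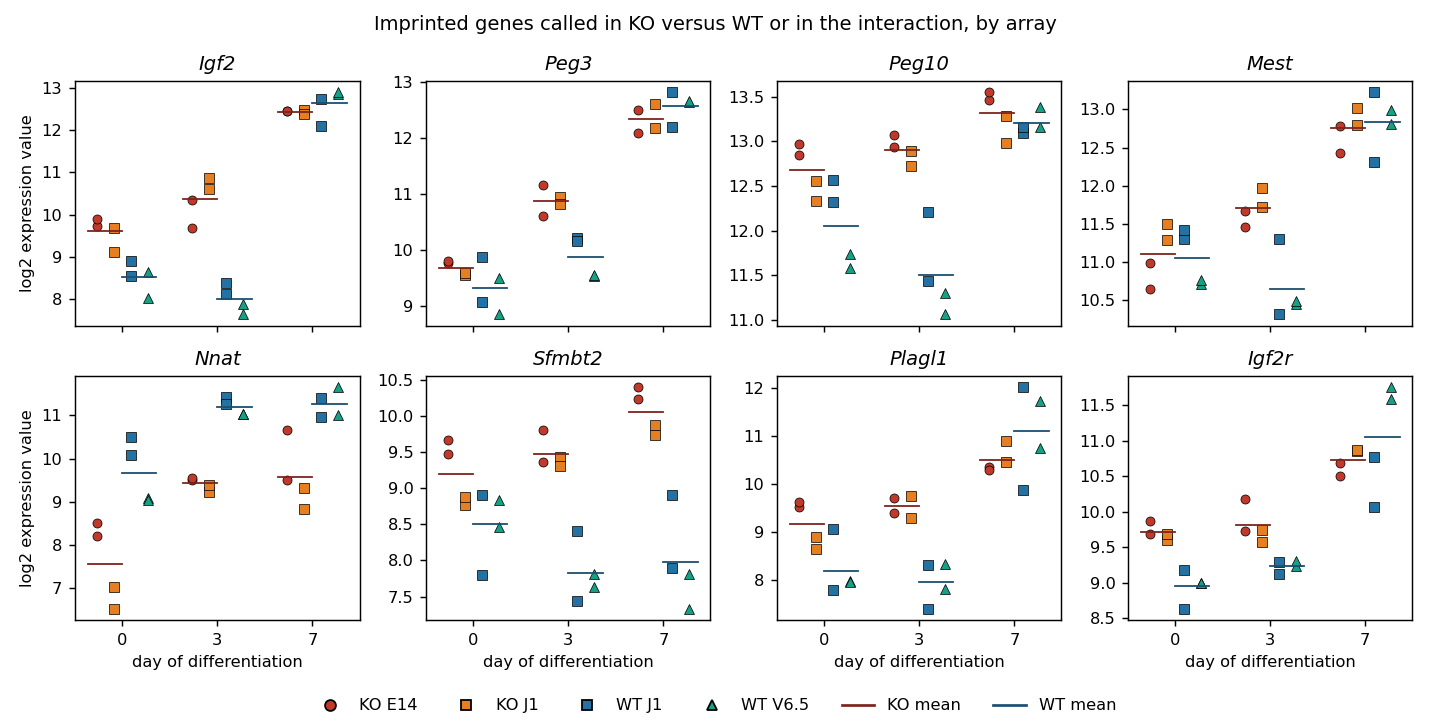
Log2 expression value (vertical axis) by day of differentiation (horizontal axis) for the 7 imprinted genes called between KO and WT and for Igf2r; points are single arrays, coloured by line and genotype, and bars are the means of 4 arrays. On day 3 the KO arrays of Igf2, Peg3, Peg10, Mest, Plagl1 and Sfmbt2 lie above every WT array, while those of Nnat lie below.

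Nnat, the neuronatin gene, was the only imprinted gene called on all 3 days, and the only one called lower. On day 0 it read 8.22 and 8.52 in KO E14, 6.52 and 7.03 in KO J1, 10.49 and 10.10 in WT J1, and 9.10 and 9.04 in WT V6.5. On day 3 it read 9.51 and 9.56, 9.24 and 9.40, 11.43 and 11.26, and 11.03 and 11.03 in the same order. On day 7 it read 9.52 and 10.66, 9.32 and 8.84, 10.97 and 11.40, and 11.66 and 11.01. Every KO array was below every WT array on each day. KO J1 was the lowest on day 0.

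The differences for Nnat were -2.11, -1.76 and -1.68 on days 0, 3 and 7 (SE 0.38, limma adjusted p = 0.00377, 0.014 and 0.00352). With averaged arrays the adjusted p values were 0.204, 0.285 and 0.0873. Without the line KO J1 the day 0 and day 7 values were -1.31 (0.0866) and -1.17 (0.0597), and without WT J1 the day 0 value was -1.50 (0.0572). Blcap, the maternally expressed gene whose intron holds Nnat, lay between -0.16 and -0.03, with no call.

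Sfmbt2, a Polycomb family gene expressed from the paternal allele, was the only 1 of the 7 called genes whose difference over all lines was larger on each later day, at 0.70, 1.66 and 2.08. Within J1 it was 0.47, 1.45 and 1.41, with no rise from day 3 to day 7. For KO E14 against WT V6.5 it was 0.92, 1.87 and 2.755. The widening from day 0 to day 3 was not called (limma interaction 0.96, adjusted p = 0.782), and that from day 3 to day 7 was not tested. On day 0 Sfmbt2 read 9.67 and 9.47 in KO E14, 8.77 and 8.88 in KO J1, 7.80 and 8.91 in WT J1, and 8.47 and 8.83 in WT V6.5. On day 3 it read 9.36 and 9.82 in KO E14, 9.43 and 9.30 in KO J1, 8.40 and 7.43 in WT J1, and 7.63 and 7.81 in WT V6.5. On day 7 it read 10.24 and 10.41 in KO E14, 9.88 and 9.74 in KO J1, 7.89 and 8.90 in WT J1, and 7.32 and 7.81 in WT V6.5. The arrays overlapped on day 0 and were apart on days 3 and 7. From day 0 to day 7 Sfmbt2 changed by 0.87 in KO and by -0.52 in WT cells, neither called by limma (adjusted p = 0.0268, under 2-fold, and 0.14).

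The day 7 difference for Sfmbt2 was 4.24-fold (SE 0.31 on the log2 scale, limma adjusted p = 5e-05) and was called in all 39 alternative settings. The day 3 call (adjusted p = 0.00466) was lost without the line KO E14 (1.55, 0.126) and with averaged arrays (0.0892). Of the other listed genes with a known oocyte H3K27me3 imprint, Gab1 and Slc38a4, neither was called on any day. Gab1, a signalling adaptor, was lower in KO cells on day 0, at 10.51, 10.30, 10.10 and 10.28 against 11.31, 11.30, 11.11 and 10.94 in WT arrays, with no overlap. Its difference of -0.87 (adjusted p = 0.00128) was under 2-fold and shrank to -0.36 on day 3 and -0.02 on day 7. Slc38a4, an amino acid transporter, was higher by 0.57 on day 3 (adjusted p = 0.0378) and differed by 0.31 and 0.04 on days 0 and 7.

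Jade1 and Smoc1, also reported to carry such imprints, are in a list of 13 further imprinted genes of these and other clusters. Jade1 was called higher on day 7 (1.31, limma adjusted p = 1.87e-07) and stood at -0.02 and 0.16 on days 0 and 3, and Smoc1 was at 0.59 on day 7 (adjusted p = 0.11). In that list limma called none on days 0 and 3 (1 and 3 at an unadjusted p under 0.05). On day 7, 1 was called higher (Jade1) and 1 lower, Tspan32 of the Kcnq1 cluster (-1.79, adjusted p = 0.00121). The growth-restraining Cdkn1c of the same cluster, a known Polycomb target, differed by 0.53, 0.66 and -0.07, with no call.

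In the Kcnq1 cluster, silenced on the paternal allele by a noncoding RNA, none of 6 maternally expressed genes reached a call. Phlda2, which restrains placental growth, came nearest: on day 3 it read 11.96, 12.02, 11.68 and 12.05 in KO arrays and 10.85, 9.79, 10.91 and 11.70 in WT arrays. Only 1 WT V6.5 array reached the KO range, and the difference was 1.12 (SE 0.32, limma adjusted p = 0.0663). Kcnq1, a potassium channel gene, Slc22a18, a transporter gene, Cd81, a tetraspanin gene, Tssc4 and Osbpl5, an oxysterol-binding protein gene, ranged from -0.15 to 0.37 over the 3 days.

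Grb10, an adaptor that dampens insulin signalling, and Ddc, an amino acid decarboxylase, ranged from -0.23 to 0.73, with no call. In the Prader-Willi cluster the paternally expressed Ndn, Magel2, Mkrn3 and Peg12 ranged from -0.37 to 0.51, again with no call. By adjusted p alone, with no fold minimum, limma passed 10 of 39 imprinted genes on day 3 and 5 on day 7. Of all 19938 genes, 434 and 3250 passed on these days. Among single-gene loci, 3 more imprinted genes passed the adjusted p without reaching 2-fold. Impact, a regulator of translation, was higher by 0.70 on day 3 (limma adjusted p = 0.0253). Nap1l5, a nucleosome assembly protein gene, was higher by 0.55 on day 7 (0.0233), and Inpp5f, a phosphoinositide phosphatase gene, was lower on day 7 (-0.61, 0.0025). Rasgrf1, a Ras exchange factor, Zdbf2 and H13, a signal peptide peptidase, lay between -0.25 and 0.37 on all days.

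The J1 line allows KO and WT cells of 1 named line to be compared, with 2 arrays each and the spread taken between repeat arrays of all lines. On day 3, limma called 4 of 39 imprinted genes higher in KO J1 (0.742% of all genes), namely Igf2 (2.48), Phlda2 (1.54), Sfmbt2 (1.45) and Mest (1.03), and 2 lower (0.261%), Nnat (-2.03) and Calcr (-1.02). On day 0 none was called higher (0.286% of all genes, with 6 of 39 higher at an unadjusted p under 0.05) and Nnat (-3.52) and Gab1 (-1.11) were called lower (0.171%). On day 7 Sfmbt2 (1.41) and Ddc (1.02) were called higher (2.91%) and Nnat (-2.10) and Sgce (-1.38) lower (1.38%). Nnat was thus called on each day within J1, and Igf2 on day 3. The day 3 count dropped from 6 to 2 without replicate 2 of KO J1 or of WT J1, and the day 7 count from 4 to 2 without replicate 2 of KO J1 (settings chosen after the data were seen).

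The other pair, KO E14 against WT V6.5, differs in line as well as genotype and is described by its values. On day 3 Igf2 stood at 2.48 in J1 and 2.25 in the E14 and V6.5 pair, Plagl1 at 1.67 and 1.49, Sfmbt2 at 1.45 and 1.87, and Mest at 1.03 and 1.09. These 4 genes were at least 2-fold higher in both pairs, as were 0.557% of all genes, and Nnat was at least 2-fold lower in both (-2.03 and -1.50, 0.0752% of all genes). Peg10 and Peg3 were at 0.99 and 0.69 in J1 against 1.82 and 1.34 in the other pair. Sgce was at -0.02 against 1.14. The sign was shared for 27 of 39 imprinted genes on day 3 (69.2%, all genes 54.5%), 24 on day 0 (61.5%, all genes 58.8%) and 25 on day 7 (64.1%, all genes 63.4%).

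**Figure D3:**
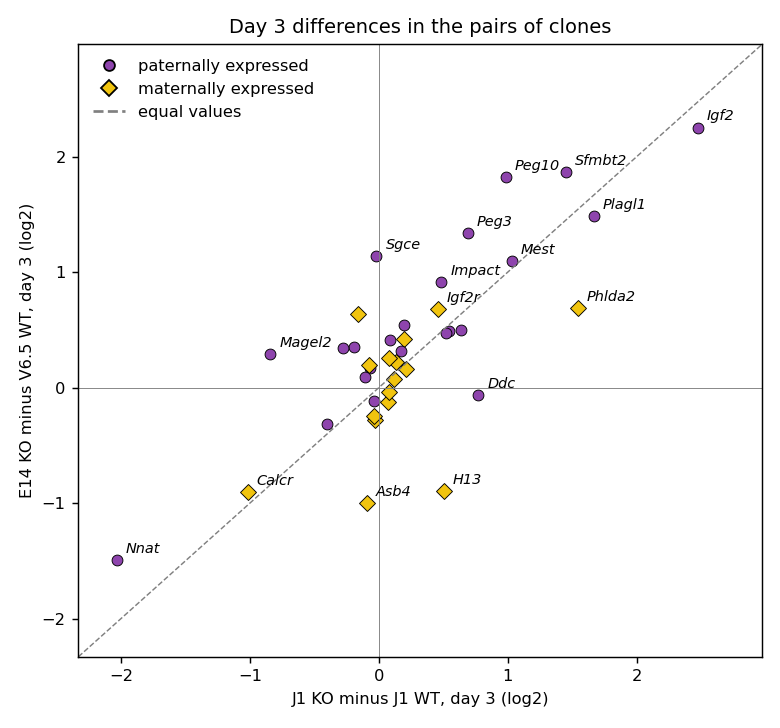
KO minus WT on day 3 on the log2 scale for the 39 imprinted genes, in J1 (horizontal axis) and for KO E14 against WT V6.5 (vertical axis); circles are paternally and diamonds maternally expressed genes, and the dashed line marks equal values. Igf2 lies at the upper right (2.48 and 2.25) and Nnat at the lower left (-2.03 and -1.50), while Sgce and Phlda2 lie off the dashed line.

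Lines of 1 genotype also differed from each other, for the imprinted genes by less than 2-fold when averaged over the 3 days. Limma called no imprinted gene between the KO lines (0.191% of all genes called) or between the WT lines (0.426%). An unadjusted p under 0.05 was found for 12 and 15 of the 39, but the share of all genes at that limit was not computed. Nnat was 0.94 higher in KO E14 than in KO J1, Sgce 0.82 higher, and H13 lower (-0.73). Between WT V6.5 and WT J1, Grb10 differed by 0.93 and Sgce by -0.92. Single days held gaps of more than 2-fold. Nnat on day 0 had means of 8.37 in KO E14 and 6.77 in KO J1, and Sgce on day 7 had 10.638 and 9.215. In WT V6.5 and WT J1, Igf2r on day 7 had means of 11.67 and 10.42, and Sgce on day 0 had 7.36 and 8.65.

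Many of these genes were higher on day 7 than on day 0. In WT cells 13 of 39 imprinted genes were called higher on day 7 than on day 0 (5.09% of all genes), and none was called lower (3.89%, with 3 of 39 lower at an unadjusted p under 0.05). They were Igf2 (4.12), Airn (3.91), Asb4 (3.41), Zim1 (3.29), Peg3 (3.26), Plagl1 (2.90), Sgce (2.32), Igf2r (2.10), Ndn (1.97), Mest (1.78), Nnat (1.58), Peg10 (1.15) and Grb10 (1.03). In KO cells 11 were called higher (2.05% of all genes) and none lower (0.421%, with 0 of 39 lower at an unadjusted p under 0.05), and all 11 were among the 13. The KO values were Airn 2.99, Igf2 2.83, Peg3 2.67, Zim1 2.65, Asb4 2.33, Nnat 2.01, Sgce 1.70, Mest 1.65, Plagl1 1.33, Ndn 1.09 and Igf2r 1.02. They comprised 9 paternally and 4 maternally expressed genes in WT cells, and 8 and 3 in KO cells. Over the same days limma called higher in WT cells 10 of 18 fibroblast, 6 of 12 extraembryonic endoderm, 4 of 8 trophoblast and 6 of 7 primitive blood markers, and in KO cells 4, 5, 3 and 0 of them. Of the fibroblast markers it also called 3 lower in WT cells and 5 lower in KO cells. The median change of the fibroblast markers was 1.31 in WT and -0.17 in KO cells. The part of such cells in the rise of the imprinted genes was not tested.

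Values close to the 2-fold limit did not hold in every setting. Grb10 in WT cells fell below it without replicate 1 or 2 of WT J1 on day 0 (0.92 and 0.93) and without replicate 1 or 2 of WT V6.5 on day 7 (0.95 and 0.98). Igf2r in KO cells did so without replicate 1 of KO J1 on day 0 (0.98) or replicate 1 or 2 of KO J1 on day 7 (0.97 and 0.96). Ndn in KO cells did so without replicate 2 of KO E14 on day 7 (0.96). With averaged arrays limma called 7 imprinted genes in KO cells, and 338 of all genes in place of 492.

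On day 3 fewer genes had moved from day 0. In WT cells Calcr (2.54), Nnat (1.51) and the necdin relative Magel2 (1.28) were called higher (0.958% of all genes), and Phlda2 (-1.16) and Ddc (-1.39) lower (1.08%). In KO cells Calcr (1.88), Nnat (1.86) and Peg3 (1.21) were higher (0.562%) and Ddc (-1.09) was lower (0.607%). Calcr was transient in both genotypes, since it was back at 6.49 to 7.56 over all 8 arrays on day 7. The KO and WT changes from day 0 to day 3 differed for no imprinted gene by limma (0.0502% of all genes called), with 9 of 39 at an unadjusted p under 0.05.

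From day 0 to day 7, 3 imprinted genes changed differently in KO and WT cells: Sfmbt2 was called higher in KO cells relative to WT (1 of 39, against 1.93% of all genes), and Igf2 and Igf2r lower (2 of 39, against 1.45%). Igf2 rose by 4.12 in WT and 2.83 in KO cells, a difference of -1.29 (SE 0.32, limma adjusted p = 0.0116), from a higher KO start to similar day 7 levels. Igf2r rose by 2.10 and 1.02 (difference -1.08, SE 0.30, adjusted p = 0.0275), and read 10.50, 10.68, 10.86 and 10.87 in KO arrays on day 7 against 10.07, 10.78, 11.59 and 11.75 in WT arrays. Only WT V6.5 was above the KO range there. Sfmbt2 differed by 1.39 (SE 0.38, adjusted p = 0.0228). Plagl1 had the largest gap, -1.57, with an adjusted p of 0.0502.

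These differences between the courses depend on single lines and arrays. None of the 3 genes was called with averaged arrays (adjusted p = 0.173 for Igf2, 0.352 for Igf2r and 0.197 for Sfmbt2) or without the line KO E14 (0.127, 0.344 and 0.129). Without WT V6.5 the values were -0.87 (0.279) for Igf2, -0.50 (0.452) for Igf2r and 0.82 (0.469) for Sfmbt2. Igf2r lost its call without any 1 of 7 arrays, namely replicate 2 of KO E14 on day 0 (-1.03), replicate 1 of KO E14 on day 7 (-0.99), replicate 1 of WT J1 on day 0 (-1.01), replicates 1 and 2 of WT V6.5 on day 0 (-1.05 each) and both on day 7 (-0.93 and -0.87). Sfmbt2 lost it without replicate 1 of KO J1 on day 0 (1.28), replicate 2 of WT V6.5 on day 0 (1.25) or replicate 1 of WT V6.5 on day 7 (1.18). Without replicate 1 of WT J1 on day 7 the count rose to 6, without replicate 2 of WT J1 on day 0 to 5, and without replicate 2 of KO E14 on day 7 to 6.

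**Figure D4:**
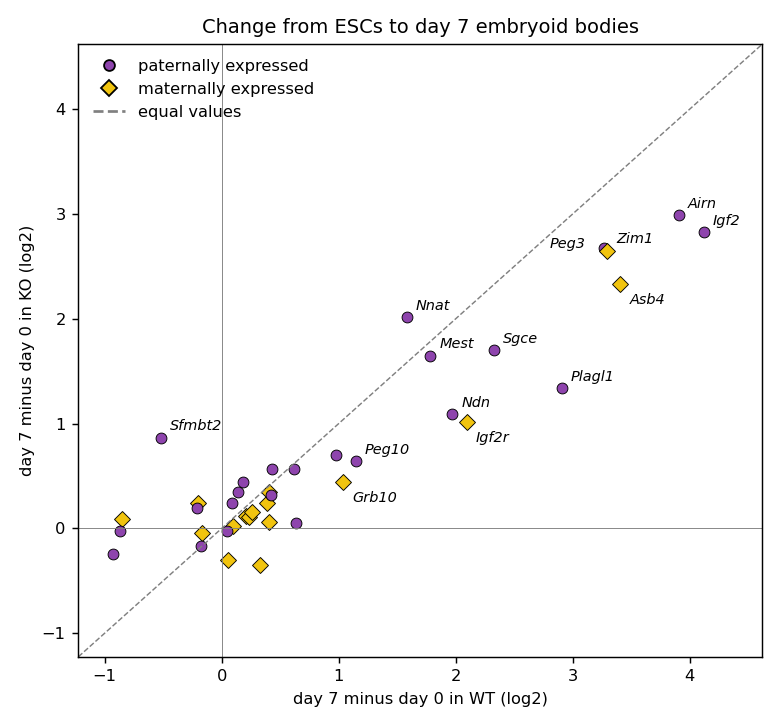
Change from day 0 to day 7 on the log2 scale for the 39 imprinted genes in WT cells (horizontal axis) and KO cells (vertical axis); circles are paternally and diamonds maternally expressed genes, and the dashed line marks equal change. Igf2 (4.12 and 2.83) and Plagl1 (2.90 and 1.33) lie below the line and Sfmbt2 lies above it.

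Marker RNAs of other cell states differed between the genotypes on day 7. All 6 pluripotency markers were called higher in KO EBs, with a mean level of 10.69 to 11.26 against 7.42 to 8.27, and all 7 primitive blood markers lower, with 5.98 to 6.59 against 9.56 to 10.98. On day 3 the pluripotency markers Zfp42 and Esrrb were already called higher (2 of 6), with a mean level of 10.77 to 11.19 against 9.48 to 10.40, and limma called none of the blood markers, with 0 of 7 at an unadjusted p under 0.05. Of 8 trophoblast markers measured, limma called none on day 3 (1 at an unadjusted p under 0.05), and on day 7 Krt7 was higher and Cdx2 and Hand1 lower. Of 7 neural markers limma called none on any day, with 1, 0 and 3 at an unadjusted p under 0.05 on days 0, 3 and 7. Their part in the levels of the imprinted genes was not tested.

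The RNAs of 21 genes listed as imprint regulators, among them genes whose proteins write, keep or oxidise DNA methylation, were measured beside the imprinted genes. Limma called none on day 0, with 4 at an unadjusted p under 0.05. On day 3, Dnmt3l, the cofactor of germline de novo methylation (2.08, limma adjusted p = 0.00102), Zfp57, the zinc finger protein that protects methylated control regions (1.17, 0.000155), and Tet2, a 5-methylcytosine oxidase (1.11, 0.0157), were called higher. On day 7, Dnmt3l (4.23), Dppa3 (1.95), Tet1 (1.18) and Zfp57 (1.02) were higher. Limma called none of the 21 lower, with 1, 1 and 0 lower at an unadjusted p under 0.05 on days 0, 3 and 7. Dnmt1 and Uhrf1, which copy methylation at replication, ranged from -0.005 to 0.18, and Trim28, the corepressor that ZFP57 recruits, was at 0.03, 0.19 and 0.45. Several of the called genes are also known as genes of pluripotent cells, whose markers were higher on the same days; their part in these values was not tested.

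The Dlk1 to Dio3 domain, a separate imprinted cluster, gave larger differences, in genes of the other parental allele. Its maternally expressed noncoding RNAs Meg3, Rian and DQ267102 were called lower in KO cells on every day, 3 of 6 genes measured, with Meg3 at -2.20, -3.96 and -4.61. Its paternally expressed Dlk1, Rtl1 and Dio3 were not called, at 0.12, -0.36 and 0.78 on day 3. Among the imprinted genes outside that domain no difference between all KO and all WT arrays was as large as that of Meg3 on the same day.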

How the data were processed

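Total RNA of 24 samples was hybridised to Affymetrix Mouse Gene 1.0 ST arrays. The authors deposited log2 expression values, made with Affymetrix Power Tools and RMA (background correction, quantile normalization and probe summary) per the submitters' processing notes; the scale was taken from the range of the values (2.08 to 14.4). Tool versions, genome build and probe annotation used are not given in the sources. Of 35556 probe sets, 21789 had 1 gene symbol in the platform annotation, 1621 several and 12146 none listed; the highest-mean probe set was kept for each of 19938 genes. Quantile normalization sets all arrays to 1 distribution, so a shift of all genes together cannot be seen, and the number of arrays limits the precision.

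Differences were fitted with limma 3.58.1 in R 4.3.3 (lmFit, eBayes) on 6 genotype-by-day means with the line as a random block (duplicateCorrelation, consensus correlation 0.161, 18 residual degrees of freedom). J1 KO against J1 WT and the lines of a genotype were compared on 12 line, genotype and day means (12 residual degrees of freedom). Adjusted p-values are Benjamini-Hochberg over all genes, the tests are two-sided, and a call needs adjusted p under 0.05 and 2-fold. Counts at an unadjusted p under 0.05 stand without the share of all genes at that limit, which was not computed. The fit was tested on simulated data. Every measured gene of the list is named, array values are given for those called between genotypes or in the difference of courses, and Calcr, Gab1, Phlda2, Asb4 and Igf2 neighbours are given as further examples chosen after their values were seen. The members and lists were chosen with earlier results of these data known. Alternatives changed the block, the probe set rule, a filter on dim genes (mean under 5), the normalization, the variance trend, the fold minimum and the arrays or lines left in.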

Additional observations from a re-analysis of the deposited data

Results flagged for a closer look

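For 3 imprinted genes the interaction term of the limma fit over 24 arrays was called, for the change from day 0 to day 7 in KO against WT lines. None of the 3 calls was kept with averaged arrays or without the line KO E14 or WT V6.5. Genotype and line of origin cannot be told apart outside J1. For Igf2 the KO change minus the WT change was -1.29 on the log2 scale (adjusted p = 0.0116), for Igf2r it was -1.08 (adjusted p = 0.0275), and for Sfmbt2 it was 1.39 (adjusted p = 0.0228). Groups hold 2 arrays per line and day, so a search for single outlying arrays within a group was not made.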

How the results depend on the processing

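Each count and each called value was recomputed under up to 39 alternatives, 24 of which left out 1 array. Of 318 counts 281 stayed within 1.5 times, and of 1482 values for called genes 1388 kept the call, 94 lost it and 0 changed sign. The counts compare numbers and not which genes were called. Without WT V6.5 limma called 2 differences between the courses, with 0 of the main 3 among them. On day 0 that setting called 2 genes, both lower, with 1 of the main 2 among them. Some settings could not move a value, since each gene had 1 probe set and none a mean under 5 (lowest 6.16). Leaving out an array of another day likewise left a 1-day difference as it was. For KO against WT, the 2 calls on day 0 became 0 with the arrays of a line and day averaged, 1 without KO E14 or KO J1 and 4 without WT J1. The 7 on day 3 became 1 with averaged arrays and 2 without KO E14, and the 2 on day 7 became 5 with no fold minimum, 4 without KO E14 and 1 without KO J1. Over all 19938 genes the calls moved too. The 110 on day 0 became 20, 47, 216 and 272 in the same order of settings. The 151 on day 3 became 39 and 53, and the 870 on day 7 became 3250, 782 and 985. From day 0 to day 7, the 13 imprinted genes called in WT cells became 24 with no fold minimum, and the 11 in KO cells 7 with averaged arrays and 17 with no fold minimum. Over all genes the 1791 calls in WT cells became 7301, and the 492 in KO cells became 338 and 3299. The 3 differences between the courses of imprinted genes became 0 with averaged arrays or without KO E14, 1 without KO J1, 5 with arrays quantile-normalized again, 7 with no fold minimum or without WT J1, and 6 without the WT J1 day 7 arrays. Over all genes the 673 such calls became 229, 371, 512, 664, 1617, 1013 and 996 in the same order. Within J1, no fold minimum gave 4 imprinted genes in place of 2 on day 0 and 10 in place of 6 on day 3. Over all genes it gave 331 in place of 91 and 519 in place of 200. Averaging leaves fewer samples, and the cause was not tested otherwise.

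Leaving out each array in turn gave 1 to 2 calls on day 0, 4 to 8 on day 3 and 2 to 4 on day 7, 12 to 15 in WT and 10 to 11 in KO differentiation, and 1 to 6 between the courses. Within J1, where leaving out arrays was chosen after seeing the data, it gave 2 to 3, 2 to 7 and 2 to 4 on days 0, 3 and 7. Same-numbered arrays deviated together at correlations of -0.397 to 0.470 (median 0.057), above 0.1 in 30 of 66 pairs of groups. Pairs of 1 day or 1 line were not looked at apart, so this does not settle whether the numbers pair the samples. With the replicate block Plagl1 on day 3 had a difference of 1.58 (adjusted p = 0.0529) and the day 3 count was 6. Detection above background per probe set was not used here, so small differences at low values are the least certain.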
